A study of Homo sapiens with 9 samples.

Results

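The genes described here belong to the 2 connected programmes that cells switch on when amino acids run short or when unfolded proteins build up in the endoplasmic reticulum (ER). They were chosen by symbol, 44 genes of the 63856 rows of the count table, each with a single counted row on a primary chromosome. They were divided into an ATF4 arm of 27 genes (amino acid synthesis, amino acid transport, tRNA charging and stress regulators) and an ER chaperone arm of 17 genes (the XBP1 and ATF6 side, which holds chaperones, folding enzymes and degradation factors). All 44 members passed the filter on low counts.

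ATF4 is a transcription factor whose protein is made in larger amounts when the translation factor eIF2 is phosphorylated by a stress kinase such as PERK (EIF2AK3) or GCN2 (EIF2AK4), so its activity can change without a change in its mRNA. It acts on genes that hold an amino acid response element. The ER arm is driven by IRE1 (ERN1), which splices the XBP1 mRNA, and by ATF6. The XBP1 protein made from the spliced mRNA and ATF6 act on ER stress response elements in chaperone promoters. Counts per gene report neither the splicing of XBP1, the phosphorylation of eIF2 nor the amount of ATF4 protein.

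RNA-seq was made from TCam-2, a human cell line derived from a testicular seminoma, in 3 groups of 3 libraries. WT cells had no modification. NC cells received a px335_G2P vector with guide RNAs that match no human sequence. ESX1 cells received px335_G2P vectors with guides to ESX1, an X-linked homeobox gene, together with the doxycycline-inducible PB-TRE-dCas9-VPR activator. The px335_G2P vector also holds a GFP sequence, so both groups received it. Transfection was by lipofection, and the paper describes antibiotic selection and doxycycline induction for both ESX1 and NC cells. Whether NC cells carried dCas9-VPR and whether WT cells were exposed to lipid, puromycin or doxycycline is not given in the sources used here. Guides, vector, transfection and drugs therefore cannot be told apart in any comparison with WT. In ESX1 against NC, the guides to ESX1 cannot be told apart from the activator if NC cells lacked it. The paper reports GFP in only part of the ESX1 and NC cells after selection. In ESX1 cells it reports nuclear ESX1 protein with a strong signal in some cells and a weak one in others. Values of these groups are therefore means over a mixed culture. The methods call the 3 libraries of each group biological replicates.

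The libraries held from 5212804 counts (ESX1 replicate 3) to 10644408 counts (WT replicate 3), and the next lowest held 7494442. ESX1 itself had 170 to 562 counts in the ESX1 libraries, 27 to 35 in NC and 28 to 33 in WT, in keeping with the labels. The mitochondrial share of counts was 14.45 to 15.25% in NC, 17.02 to 18.33% in WT and 19.2 to 19.87% in ESX1. All 7 seminoma markers (POU5F1, NANOG, SOX17, PRDM1, TFAP2C, PDPN, KIT) were present in every library, but their summed level was 3352 to 4047 CPM in WT, 2541 to 2729 in NC and 1422 to 1725 in ESX1, and 6 of the 7 were lower both in NC and in ESX1 than in WT. CPM, the unit of every level here, is the read count scaled to the library total after TMM adjustment. The blood marker PTPRC was at or near 0 (at most 0.185 CPM), and the 4 stroma markers (COL1A1, COL3A1, DCN, LUM) summed to 2.33 to 16.7 CPM in WT, 15.9 to 20.6 in NC and 10.7 to 31.8 in ESX1. COL3A1 had 70, 0 and 6 counts in WT, 1, 2 and 0 in NC and 15, 1 and 2 in ESX1. LUM had 31, 0 and 0 counts in WT and at most 4 in any other library. DCN had 0 counts in every WT library and at most 5 in any other. Of the 4 stroma markers only COL1A1 passed the filter on low counts. It was at 5.68, 2.33 and 2.92 CPM in WT, with all 6 transfected libraries above, and was 4.58-fold higher in NC (edgeR adjusted p = 7.08e-04) and 4.81-fold higher in ESX1 (adjusted p = 2.36e-04) than in WT. The embryonal carcinoma marker SOX2 was at 1.88 to 5.46 CPM in WT, 6.74 to 11.8 in NC and 5.48 to 10.2 in ESX1, all 6 above WT, and passed in NC against WT (2.35-fold, edgeR adjusted p = 0.0222) but not in ESX1 against WT (1.84-fold, 0.0751). The Sertoli marker AMH was at 5.68 to 18.1 over all libraries. In cultures such as these, fewer cells of a kind and less RNA per cell cannot be told apart. The part of these marker and mitochondrial differences in the results on the members was not tested.

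Letters known from genes of each arm were searched around the starts of the members. Promoter windows from RefSeq (GRCh38.p14, 250 bases before to 50 after each start) were matched for 40 members. NUPR1, PSPH, SHMT2 and ALDH1L2 are named only. The core of the amino acid response element, searched as TGATGNAA on both strands, was found for 7 of the 23 ATF4 arm genes with a window (CEBPG, CHAC1, ASNS, SLC3A2, AARS, GARS, MARS) and for 1 of the 17 ER arm genes (HERPUD1), against 4.46% of all 27305 genes in the table. The ER stress element, searched on both strands as CCAAT, any 9 bases, then CCACG, was found for 7 of the 17 ER arm genes (XBP1, HSPA5, HSP90B1, CALR, CANX, PDIA6, CRELD2) and for none of the 23 ATF4 arm genes, against 0.09% of all genes. The other 16 ATF4 arm genes and 10 ER arm genes with a window did not hold their own arm's letters there. The match of SLC3A2 lay after the annotated start and that of MARS spanned it. The 9 free bases of the second pattern could hold the first, but no gene here had both. A match is a description of the letters and not evidence of binding. The sequences below are examples from some of the matched genes, 5′ to 3′ on the gene's own strand. Capitals mark the matched letters (read as the reverse complement where the match was on the other strand). Not shown are the upstream matches of CEBPG, GARS, HSP90B1, CANX and CRELD2, none of which passed the test in any comparison of the main fit. Of the genes shown, all but XBP1 passed in some comparison, so the examples do not represent all matched genes.
ASNS, amino acid core 68 to 61 bases upstream of the start, chr7:97872439-97872506, minus strand: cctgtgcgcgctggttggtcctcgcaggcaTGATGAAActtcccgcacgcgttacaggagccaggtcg
CHAC1, reverse complement of the core 209 to 202 bases upstream, chr15:40953232-40953299, plus strand: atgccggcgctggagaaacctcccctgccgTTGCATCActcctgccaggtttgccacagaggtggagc
AARS, reverse complement of the core 187 to 180 bases upstream, chr16:70289656-70289723, minus strand: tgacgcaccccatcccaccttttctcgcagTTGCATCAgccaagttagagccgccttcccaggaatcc
HERPUD1, reverse complement of the core 176 to 169 bases upstream, chr16:56931936-56932003, plus strand: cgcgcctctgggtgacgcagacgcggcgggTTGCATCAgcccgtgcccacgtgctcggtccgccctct
HSPA5, ER stress element 66 to 48 bases upstream, chr9:125241361-125241439, minus strand: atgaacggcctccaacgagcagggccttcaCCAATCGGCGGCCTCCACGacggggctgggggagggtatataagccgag
XBP1, ER stress element 52 to 34 bases upstream, chr22:28800573-28800651, minus strand: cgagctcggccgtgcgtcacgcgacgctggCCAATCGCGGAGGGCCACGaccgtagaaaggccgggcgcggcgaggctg
CALR, reverse complement of the ER stress element 225 to 207 bases upstream, chr19:12938359-12938432, plus strand: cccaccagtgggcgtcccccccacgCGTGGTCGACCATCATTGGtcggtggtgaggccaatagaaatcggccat
PDIA6, ER stress element 86 to 68 bases upstream of an annotated start, chr2:10812823-10812901, minus strand: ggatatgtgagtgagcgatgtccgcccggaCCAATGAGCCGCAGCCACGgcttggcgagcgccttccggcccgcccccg

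Many ATF4 arm genes were higher in both transfected groups than in WT, and few passed between ESX1 and NC. In NC against WT, 14 of the 27 ATF4 arm genes rose and 0 fell (edgeR quasi-likelihood test, Benjamini-Hochberg adjusted p below 0.05 over all 18452 genes tested), where 6.82% of all tested genes were higher and 10.3% lower. In ESX1 against WT, 16 rose and 1 fell, against a background of 12.9% higher and 15.8% lower. In ESX1 against NC, 2 rose (SLC3A2 and VLDLR) and 0 fell, against 1.88% higher and 2.37% lower. At an unadjusted p below 0.05 the counts of lower genes were 1 in NC against WT and 0 in ESX1 against NC, and both were 0 with DESeq2 and with limma at an adjusted p below 0.05. The median log2 fold change of the arm was 0.60 in NC against WT, 0.63 in ESX1 against WT and 0.13 in ESX1 against NC, and the median over all tested genes was between 0.00 and 0.01 in each. Since all 3 comparisons share groups, they are given side by side and are not independent of each other.

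Genes of the ER chaperone arm passed in both directions. In NC against WT 3 of its 17 genes rose (ERN1, HSPA5, DNAJC3; 17.6%, against 6.82% of all tested genes) and 1 fell (CALR; 5.88%, against 10.3%). In ESX1 against WT 6 rose (ERN1, HSPA5, DNAJB9, DNAJC3, HERPUD1, SEL1L), 35.3% of the arm against 12.9% of all genes, and 3 fell (CALR, PDIA6, MANF), 17.6% against 15.8%. The shares that fell were below or near those of all genes, so the number of falls is not a result about the arm. In ESX1 against NC 1 rose (DNAJB9), where 1.88% of all genes did, and 0 fell (1 at an unadjusted edgeR p below 0.05, and 0 with DESeq2 and limma). The median log2 fold changes were 0.02, 0.11 and -0.01 in that order.

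With the further demand of a 2-fold change, the 4 ATF4 arm genes left in NC against WT were DDIT3, CEBPB, ALDH1L2 and STC2, and the ER arm gene left was ERN1, where 3.12% of all genes were at least 2-fold higher and 2.15% at least 2-fold lower. In ESX1 against WT 11 ATF4 arm genes and 2 ER arm genes (ERN1 and DNAJB9) passed upward and 0 of either arm downward (0 also at an unadjusted edgeR p below 0.05 and with DESeq2 and limma), against 6.78% and 4.77% of all genes. In ESX1 against NC only VLDLR did, against 1.08% of all genes upward. All 6 transfected libraries lay above all 3 WT libraries for 11 ATF4 arm genes and 3 ER arm genes (10.5% of all tested genes), and below them for 1 and 4 (14.4% of all tested genes). The share of all genes with no overlap between ESX1 and NC was not counted. Such separation, given below for single genes, is therefore a description only. DNAJC3, SARS and CANX were also higher in every ESX1 library than in every NC library and did not pass there.

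The counts of ATF4 arm genes in NC against WT depended on single libraries. They went from 14 to 9 without NC replicate 2, without NC replicate 3 or without WT replicate 2, and to 15 without WT replicate 3. For the ER arm in the same comparison the count was 7 in place of 4 without WT replicate 1. In ESX1 against NC the 2 calls of the ATF4 arm fell to 0 without NC replicate 2 or NC replicate 3 and to 1 without ESX1 replicate 1, ESX1 replicate 3 or NC replicate 1, and the single ER arm call was lost without ESX1 replicate 3, any NC library or WT replicate 2. Without WT replicate 1 the ER arm median in ESX1 against WT was -0.15.

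**Figure D1:**
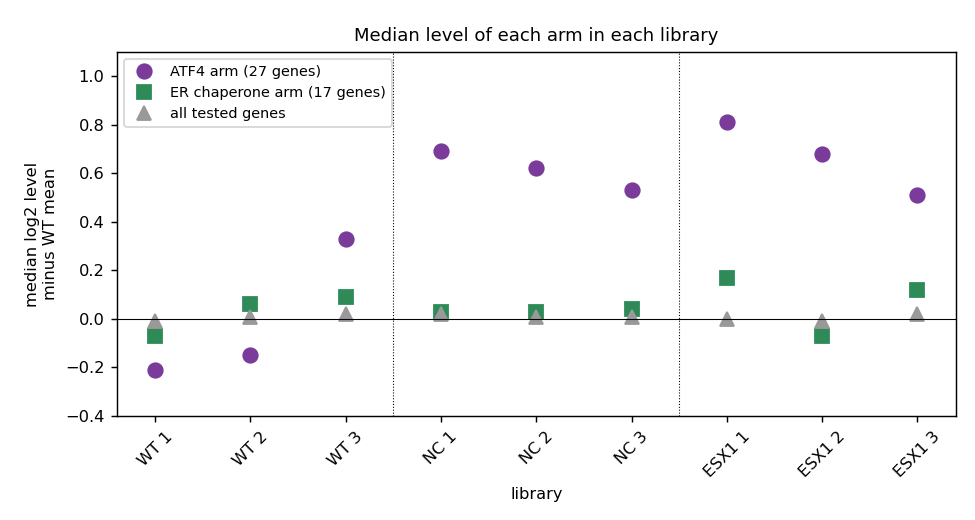
The vertical axis gives the median over the genes of an arm of log2(CPM + 0.5) minus the mean of the 3 WT libraries, for each of the 9 libraries, with all tested genes as triangles. The ATF4 arm sits at 0.51 to 0.81 in the 6 transfected libraries and at -0.21, -0.15 and 0.33 in WT, while the ER arm stays between -0.07 and 0.17 everywhere.

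The WT libraries were not alike for the ATF4 arm. Its median level relative to the WT mean was -0.21 in WT replicate 1, -0.15 in replicate 2 and 0.33 in replicate 3. Replicate 3 was the highest WT library for 24 of the 27 ATF4 arm genes (88.9%), against 8 of 17 ER arm genes (47.1%) and 35.7% of all tested genes. It stood more than 2-fold above the mean of the other WT libraries for CHAC1, DDIT4, ASNS and STC2, 4 genes of the ATF4 arm, and for 0 of the ER arm. Without WT replicate 3 the arm median was 0.77 in NC against WT and 0.79 in ESX1 against WT.

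**Figure D2:**
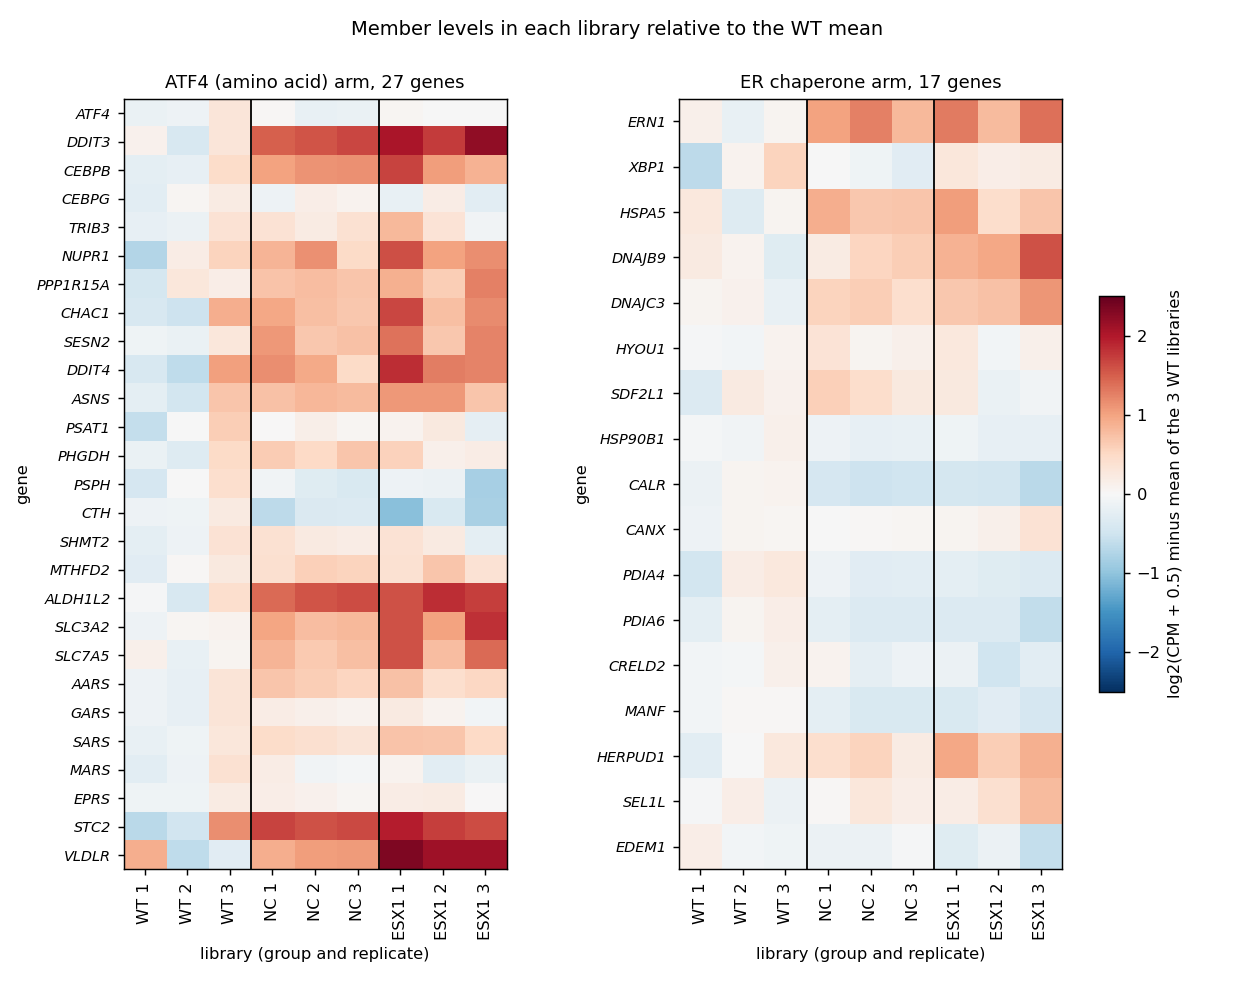
Each cell is the log2(CPM + 0.5) of 1 gene (row) in 1 library (column) minus the mean of the 3 WT libraries, red above and blue below, with the 27 ATF4 arm genes on the left and the 17 ER arm genes on the right. DDIT3, ALDH1L2, STC2 and VLDLR are the reddest rows of the ATF4 arm in ESX1, and the ER arm holds red rows (ERN1, DNAJB9) beside blue ones (CALR, PDIA6).

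Among the regulators of the ATF4 arm, 2 of 6 rose in NC and 3 in ESX1 against WT, and ATF4 mRNA was not among them. ATF4 (chr22:39519695-39522685 in GRCh38) was at 198, 202 and 274 CPM in WT, 226, 194 and 199 in NC and 230, 220 and 222 in ESX1. The groups overlapped, and the log2 fold change was -0.12 in NC against WT with a 95% interval of -0.39 to 0.15, -0.00 (-0.27 to 0.27) in ESX1 against WT and 0.12 (-0.15 to 0.39) in ESX1 against NC. CEBPG, which pairs with ATF4 on DNA, had a mean of 85.3 CPM in WT, 87.5 in NC and 80.4 in ESX1, and passed in no comparison.

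DDIT3, which encodes the stress transcription factor CHOP, had the largest fold changes of the regulators in both comparisons with WT. Its level was 9.94, 6.85 and 11.4 CPM in WT, 26.8, 28.3 and 30.5 in NC and 39.3, 32.3 and 44.7 in ESX1. The 3 groups did not overlap. DDIT3 was 3.01-fold higher in NC than in WT (log2 1.59, SE 0.19, adjusted p = 3.97e-05) and 4.06-fold higher in ESX1 than in WT (log2 2.02, SE 0.191, adjusted p = 8.50e-07), while ESX1 against NC did not pass (log2 0.43, 95% interval 0.07 to 0.80, adjusted p = 0.211). The annotation places 28.04% of the exon bases of DDIT3 in MARS on the opposite strand, and counting did not use strand. MARS itself had means of 237 CPM in WT, 236 in NC and 216 in ESX1.

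CEBPB, a leucine zipper factor that partners with ATF4 and CHOP, was at 12.7, 13.1 and 21.1 CPM in WT, 31.1, 33.8 and 34.2 in NC and 50.1, 31.7 and 28.3 in ESX1. The transfected libraries lay above every WT library and overlapped with each other. Its fold change was 2.1 in NC (SE 0.221 on the log2 scale, adjusted p = 0.00307) and 2.35 in ESX1 (SE 0.222, adjusted p = 5.10e-04) against WT. An antisense transcript covers 11.81% of its exon bases.

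NUPR1, a small stress-induced chromatin protein, was the lowest member, at 0.764, 1.89 and 2.61 CPM in WT, 3.32, 4.18 and 2.44 in NC and 5.98, 3.72 and 4.25 in ESX1. ESX1 lay above WT in every library and NC overlapped with both. NUPR1 rose 2.65-fold in ESX1 against WT (log2 1.40, SE 0.407, adjusted p = 0.0155), and this call was lost without ESX1 replicate 1 (adjusted p = 0.074) or WT replicate 1 (0.0555). Its lowest count was 7 reads, the lowest of any member. TRIB3, a pseudokinase that damps the pathway, was at 144 ± 32.8 CPM in WT, 176 ± 11.7 in NC and 187 ± 57 in ESX1 (mean ± SD, n = 3 here and below), and did not pass in any comparison. Without ESX1 replicate 3 or WT replicate 3 it did in ESX1 against WT (edgeR adjusted p = 0.0206 and 0.0293).

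The 4 feedback and stress effectors all rose in ESX1 against WT, and 2 of them, PPP1R15A and SESN2, rose in NC. PPP1R15A (GADD34), which brings a phosphatase to eIF2, was at 54.9 ± 13.6 CPM in WT, 89 ± 2.71 in NC and 104 ± 23.7 in ESX1, with edgeR adjusted p = 0.00994 in NC and 8.01e-04 in ESX1 against WT. SESN2, a leucine sensor that restrains mTORC1, was at 22.8, 21.9 and 30 CPM in WT, 52.6, 39.6 and 41.2 in NC and 63.9, 39.8 and 59.3 in ESX1. All transfected libraries lay above WT and the NC and ESX1 ranges overlapped. SESN2 was 1.78-fold higher in NC (SE 0.185 on the log2 scale, adjusted p = 0.00508) and 2.17-fold higher in ESX1 (SE 0.185, adjusted p = 2.49e-04) than in WT.

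CHAC1, which degrades glutathione, was at 3.82, 3.5 and 10.2 CPM in WT, 10.7, 9.11 and 8.55 in NC and 17.6, 9.05 and 12.4 in ESX1. WT replicate 3 reached the level of the transfected libraries and the groups overlapped. CHAC1 was 2.19-fold higher in ESX1 than in WT (log2 1.13, SE 0.341, adjusted p = 0.0195), a call lost without ESX1 replicate 1 (adjusted p = 0.108), WT replicate 1 (0.0744) or WT replicate 2 (0.0931), and NC against WT did not pass (log2 0.66, 95% interval -0.06 to 1.39), but did without WT replicate 3 (log2 1.36, adjusted p = 0.00841).

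DDIT4 (REDD1), another brake on mTORC1, was at 3.38, 2.77 and 9.92 CPM in WT, 10.9, 9.33 and 6.62 in NC and 17.7, 11.8 and 11.5 in ESX1. As for CHAC1, WT replicate 3 overlapped with NC, while the ESX1 libraries were above all others. DDIT4 was 2.51-fold higher in ESX1 than in WT (log2 1.33, SE 0.363, adjusted p = 0.0111). That call was lost without ESX1 replicate 1 (edgeR adjusted p = 0.0517) or WT replicate 2 (0.0573), and without WT replicate 3 NC against WT passed too (log2 1.52, adjusted p = 0.00475, from log2 0.71). A gene on the opposite strand covers 41.16% of its exon bases, the largest share of any member.

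The enzymes of amino acid synthesis did not move together. ASNS, asparagine synthetase and a standard reporter of ATF4 activity, was at 38.2, 32.8 and 73.2 CPM in WT, 75.4, 80.2 and 78.9 in NC and 96.7, 95.9 and 73.1 in ESX1. WT replicate 3 was level with the lowest ESX1 library, and the annotation names 4 ASNS pseudogene copies, of which the highest reached 12.6 CPM. ASNS rose 1.62-fold in NC (log2 0.69, SE 0.212, adjusted p = 0.0316) and 1.84-fold in ESX1 (log2 0.88, SE 0.212, adjusted p = 0.0049) against WT. The NC call did not hold without any single NC library (adjusted p 0.0641, 0.0801 and 0.0821 without replicates 1, 2 and 3), without WT replicate 1 (0.103) or without WT replicate 2 (0.171), and without WT replicate 3 its log2 fold change was 1.13.

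Of the serine pathway, PHGDH, which makes the first committed step from glycolysis, was at 78.7 ± 25.1 CPM in WT, 117 ± 8.07 in NC and 95.1 ± 16.9 in ESX1. It rose in NC against WT (log2 0.56, SE 0.175, adjusted p = 0.0341) and did not pass in ESX1 against WT (log2 0.27, 95% interval -0.10 to 0.64) except without WT replicate 3 (adjusted p = 0.0118). The NC call was lost without any NC library or without WT replicate 1 or 2 (edgeR adjusted p from 0.0522 to 0.191). PSAT1 and PSPH, the next enzymes of the pathway, had WT means of 76.4 and 73.5 CPM, NC means of 75.6 and 60.1 and ESX1 means of 74.8 and 56.7. Neither passed, although PSPH did in ESX1 against WT without WT replicate 1 (log2 -0.56, adjusted p = 0.0325). The annotation names a PSPH copy, PSPHP1, at up to 20.9 CPM, between which and PSPH reads could be divided. CTH, which makes cysteine from cystathionine, was the only ATF4 arm gene that fell: it was at 14.4 ± 2.19 CPM in WT, 10.3 ± 1.24 in NC and 8.47 ± 2.09 in ESX1, all transfected libraries lay below WT, and the log2 fold change in ESX1 against WT was -0.76 (SE 0.221, adjusted p = 0.0156). Without ESX1 replicate 1, ESX1 replicate 3 or WT replicate 3 that adjusted p was 0.07, 0.0613 and 0.0735.

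Among the enzymes of mitochondrial one-carbon metabolism, ALDH1L2 stood out. It oxidises formyl-tetrahydrofolate in mitochondria and was at 14.4, 11.1 and 20 CPM in WT, 40.3, 45.1 and 47 in NC and 45.6, 54.6 and 49.7 in ESX1. All transfected libraries were at least 2-fold above the highest WT library. The fold change was 2.89 in NC (log2 1.53, SE 0.178, adjusted p = 3.14e-05) and 3.27 in ESX1 (log2 1.71, SE 0.179, adjusted p = 2.48e-06) against WT, and the 95% interval of ESX1 against NC ran from -0.17 to 0.53 on the log2 scale.

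MTHFD2, the folate dehydrogenase of the same compartment, was at 146 ± 25.8 CPM in WT, 208 ± 14.7 in NC and 203 ± 27 in ESX1, with log2 fold changes of 0.51 (adjusted p = 0.0153) and 0.48 (adjusted p = 0.0142) against WT. Its NC call was lost without NC replicate 2 or 3 or WT replicate 1 or 2 (edgeR adjusted p from 0.0555 to 0.0588), and its ESX1 call without ESX1 replicate 2 (0.0656) or WT replicate 1 (0.0645). An opposite-strand gene, SLC4A5, covers 33.24% of the exon bases of MTHFD2. SHMT2, the serine hydroxymethyltransferase upstream of it, was at 126 ± 30, 149 ± 11.1 and 137 ± 28.4 CPM in WT, NC and ESX1 and did not pass.

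The amino acid transport genes rose in both comparisons with WT, and SLC3A2 also rose between ESX1 and NC. SLC3A2 (CD98 heavy chain, chr11:62856102-62888875) carries the transporter SLC7A5 (LAT1) to the cell surface. It was at 131, 148 and 154 CPM in WT, 285, 247 and 252 in NC and 435, 289 and 512 in ESX1. The groups did not overlap, although ESX1 replicate 2 was close to NC replicate 1. SLC3A2 was 1.81-fold higher in NC than in WT (log2 0.86, SE 0.159, adjusted p = 0.00142) and 1.57-fold higher in ESX1 than in NC (log2 0.65, SE 0.157, adjusted p = 0.0229). The second call was lost without ESX1 replicate 1 (adjusted p = 0.0581), ESX1 replicate 3 (0.122), NC replicate 2 (0.121) or NC replicate 3 (0.114), and without NC replicate 1 it lay just below the threshold (0.05 when rounded).

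SLC7A5 followed a like order, with 120, 97.1 and 116 CPM in WT, 199, 175 and 187 in NC and 334, 190 and 294 in ESX1. The ESX1 and NC libraries overlapped through ESX1 replicate 2. It was 1.68-fold higher in NC (SE 0.162 on the log2 scale, adjusted p = 0.00412) and 2.46-fold higher in ESX1 (SE 0.163, adjusted p = 1.71e-05) than in WT. In ESX1 against NC the log2 fold change was 0.54 (95% interval 0.21 to 0.88, adjusted p = 0.0665), and it passed without ESX1 replicate 2 (log2 0.75, adjusted p = 0.00162), with DESeq2 (0.0245) and with no filter on low counts (0.0019).

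The 5 aminoacyl-tRNA synthetases, which charge tRNAs with amino acids, were divided. AARS (alanine) had means of 206 ± 43.2 CPM in WT, 311 ± 17.5 in NC and 300 ± 35.6 in ESX1 and rose against WT in both (log2 0.60, adjusted p = 0.0064, and log2 0.54, adjusted p = 0.00663). SARS (serine) was at 111 ± 20.1, 144 ± 6.77 and 171 ± 14.1 CPM and rose in both as well (log2 0.38, adjusted p = 0.0487, and log2 0.63, adjusted p = 0.00139). The NC call of SARS was lost without any NC library or without WT replicate 1 or 2 (edgeR adjusted p from 0.0852 to 0.201). GARS (glycine), MARS (methionine) and EPRS (glutamate and proline) passed in no comparison, and their log2 fold changes against WT lay between -0.13 and 0.12. The WT, NC and ESX1 means were 325, 353 and 341 CPM for GARS and 522, 560 and 568 for EPRS.

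STC2, a secreted glycoprotein, and VLDLR, a lipoprotein receptor, varied widely within WT. STC2 was at 8.95, 10.3 and 33 CPM in WT, 48.2, 45 and 46.6 in NC and 57.9, 49.2 and 46 in ESX1. WT replicate 3 was over 3 times the other WT libraries and still below every transfected library. STC2 was 2.64-fold higher in NC (log2 1.40, SE 0.316, adjusted p = 0.00578) and 2.89-fold higher in ESX1 (log2 1.53, SE 0.317, adjusted p = 0.0016) than in WT, and its log2 fold change in NC was 2.27 without WT replicate 3.

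VLDLR (chr9:2621834-2660053) was the member with the largest change between ESX1 and NC. Its level was 14.1, 4.52 and 5.85 CPM in WT, 14, 15.5 and 15.6 in NC and 38.6, 33.3 and 33.2 in ESX1. The ESX1 libraries were all more than 2-fold above every other library, and WT replicate 1 was at the level of NC. VLDLR was 2.33-fold higher in ESX1 than in NC (log2 1.22, SE 0.265, adjusted p = 0.0117) and 4.24-fold higher than in WT (log2 2.08, SE 0.28, adjusted p = 3.45e-05). Against NC the log2 fold change stayed between 1.14 and 1.27 when each library was left out in turn, but the adjusted p was 0.0617, 0.0535 and 0.0564 without NC replicates 1, 2 and 3. NC against WT passed narrowly (log2 0.86, adjusted p = 0.0457): it did not pass without ESX1 replicate 3, without any single NC library or without WT replicate 2 or 3 (adjusted p from 0.0586 to 0.189).

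**Figure D3:**
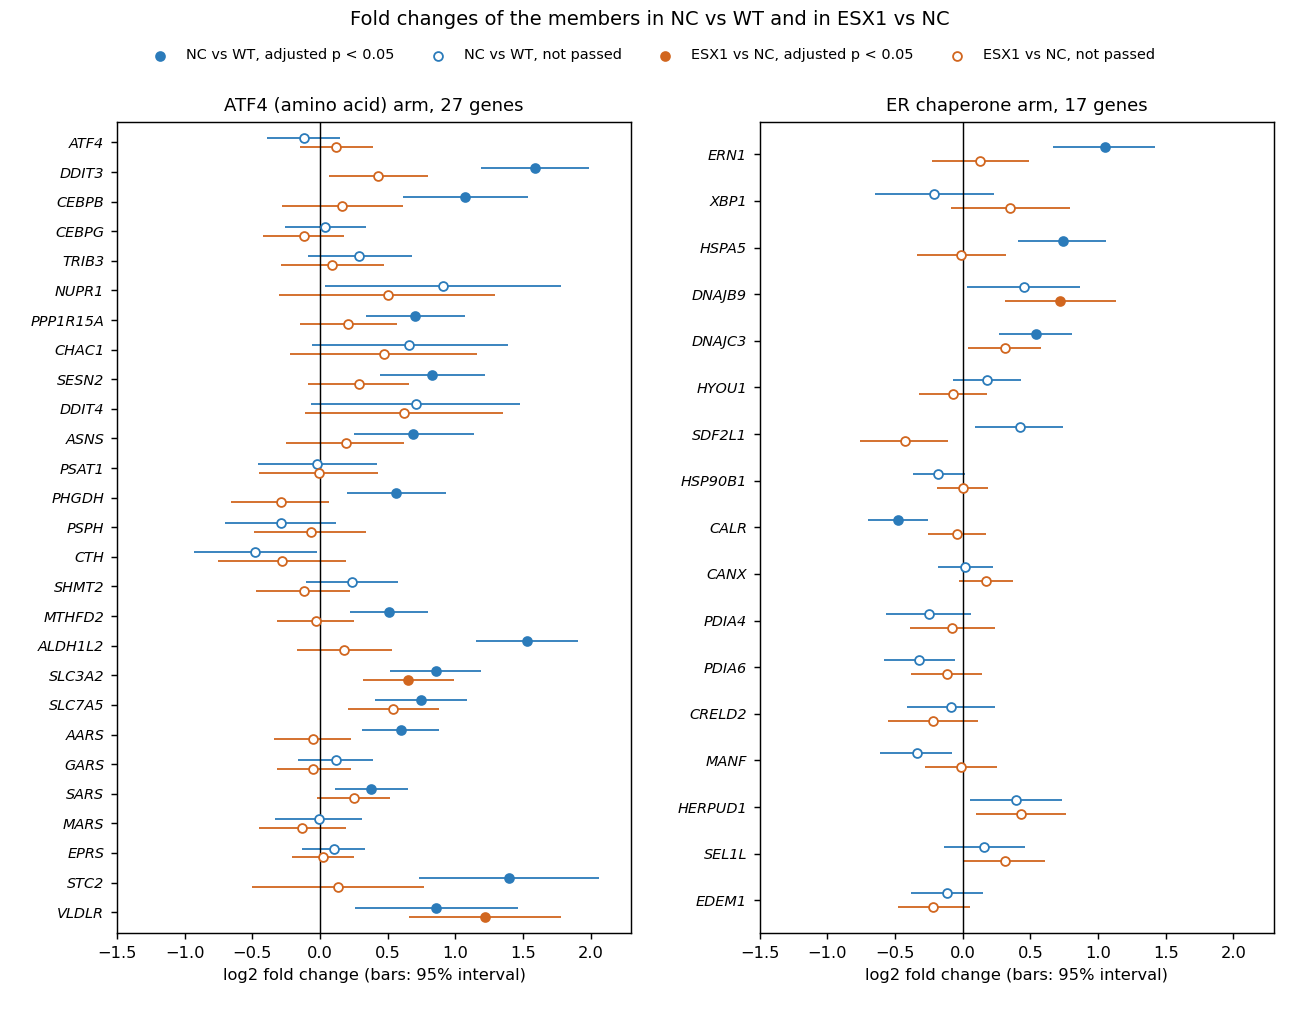
Points are log2 fold changes of the 27 ATF4 arm genes (left) and the 17 ER arm genes (right) in NC against WT (blue) and ESX1 against NC (orange), bars are 95% intervals and filled points passed at an adjusted p below 0.05. Blue filled points are 14 in the ATF4 arm and 4 in the ER arm, and orange filled points are SLC3A2, VLDLR and DNAJB9.

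In the ER arm, the sensor ERN1 rose against WT and the transcription factor it activates, XBP1, did not pass. ERN1, which encodes the membrane kinase and nuclease IRE1, was at 19.7, 15.7 and 18.9 CPM in WT, 36.9, 43.8 and 32 in NC and 44.8, 31.7 and 47.3 in ESX1. The transfected libraries were all above WT and overlapped with each other. It was 2.07-fold higher in NC (log2 1.05, SE 0.178, adjusted p = 7.16e-04) and 2.26-fold higher in ESX1 (log2 1.18, SE 0.179, adjusted p = 1.08e-04) than in WT. XBP1 was at 27.8, 47.1 and 65.6 CPM in WT, 43.8, 41.2 and 36.2 in NC and 53.5, 49.7 and 50.8 in ESX1, and the WT libraries spanned the range of both other groups. Every ESX1 library was above every NC library (log2 0.35, 95% interval -0.09 to 0.79). XBP1 passed in no comparison (log2 -0.21, 95% interval -0.65 to 0.23, in NC against WT, and 0.13, -0.31 to 0.57, in ESX1 against WT). Without WT replicate 1 it was lower in NC than in WT (log2 -0.49, adjusted p = 0.0355).

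HSPA5 (chr9:125234853-125241330), which encodes the central ER chaperone BiP, rose against WT. It was at 288, 192 and 252 CPM in WT, 450, 382 and 387 in NC and 497, 327 and 387 in ESX1. Every transfected library lay above WT. HSPA5 was 1.67-fold higher in NC (log2 0.74, SE 0.156, adjusted p = 0.00369) and 1.65-fold higher in ESX1 (log2 0.73, SE 0.156, adjusted p = 0.00208), and the 95% interval of ESX1 against NC ran from -0.34 to 0.32. HYOU1, the exchange factor of BiP, was at 140 ± 8.78, 159 ± 16 and 152 ± 17.5 CPM in WT, NC and ESX1 and did not pass. SDF2L1, a BiP-associated protein, was at 52.4 ± 10.2, 69.9 ± 8.19 and 51.7 ± 8.1 CPM. SDF2L1 was lower in every ESX1 library than in every NC library, and it did not pass there (log2 -0.43, adjusted p = 0.144). In NC against WT it missed the threshold (log2 0.42, adjusted p = 0.0715) and passed under 6 of 19 other settings, among them the fit without ESX1 replicate 1 (adjusted p = 0.0486).

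Both J-domain partners of BiP rose in ESX1 against WT. DNAJB9 (ERdj4), a known XBP1 target, was at 26.1, 23.6 and 17.9 CPM in WT, 25.6, 32.4 and 34.3 in NC and 41.2, 44 and 68 in ESX1. ESX1 lay above all other libraries, with replicate 3, the library of lowest depth, far above the rest. DNAJB9 was 1.65-fold higher in ESX1 than in NC (log2 0.72, SE 0.194, adjusted p = 0.0441) and 2.25-fold higher than in WT (log2 1.17, SE 0.199, adjusted p = 3.08e-04). The call against NC was lost without ESX1 replicate 3 (log2 0.48, adjusted p = 0.224), NC replicate 1 (0.201), NC replicate 2 (0.12), NC replicate 3 (0.0916) or WT replicate 2 (0.0588), and when every library was thinned to the smallest total (0.0763). DNAJC3 (p58IPK), which also restrains PERK, was at 72.5 ± 7.6 CPM in WT, 105 ± 7.19 in NC and 131 ± 21.3 in ESX1, and rose against WT in both (log2 0.54, adjusted p = 0.00837, and log2 0.85, adjusted p = 1.17e-04).

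Of GRP94 and the lectin chaperones, CALR fell and the others did not pass. CALR, the lectin chaperone calreticulin (chr19:12938578-12944489), was at 675, 784 and 801 CPM in WT, 563, 525 and 535 in NC and 554, 550 and 470 in ESX1. All transfected libraries were below WT, and CALR fell by 0.48 on the log2 scale in NC (SE 0.104, edgeR adjusted p = 0.00438) and by 0.52 in ESX1 (SE 0.104, adjusted p = 0.00116). HSP90B1 (GRP94) was at 892 ± 67.9 CPM in WT, 790 ± 25.7 in NC and 790 ± 32.8 in ESX1, with all transfected libraries below WT, and did not pass (log2 -0.18 in both, adjusted p = 0.205 and 0.167). CANX, the membrane-bound partner of CALR, was at 1498 ± 106, 1517 ± 26.8 and 1705 ± 191 CPM, and passed in no comparison here (it did with upper-quartile scaling in ESX1 against WT, adjusted p = 0.0248).

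The disulfide isomerase PDIA6 fell in ESX1 against WT (337 ± 48 to 248 ± 26.9 CPM, log2 -0.44, adjusted p = 0.0121). That call was lost without ESX1 replicate 3 (0.0729) or WT replicate 3 (0.0594). NC, at 269 ± 11.2 CPM, did not pass (edgeR adjusted p = 0.0792) but did without WT replicate 1 (0.0154). PDIA4, a second isomerase, was at 169 ± 42.4, 142 ± 7.75 and 134 ± 4.65 CPM and passed against WT only without WT replicate 1 (adjusted p = 0.00945 in NC and 0.00194 in ESX1). An opposite-strand gene covers 25.19% of the exon bases of PDIA6.

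MANF and CRELD2 are ER proteins released under stress. MANF was at 46.2 ± 2.06 CPM in WT, 36.3 ± 2.01 in NC and 35.9 ± 1.89 in ESX1, with no overlap between WT and the others. Its fall in ESX1 against WT (log2 -0.36, adjusted p = 0.0402) stood close to the threshold and did not pass under 13 of 19 other settings, namely 6 other filters, scalings or tests (adjusted p from 0.05 to 0.138) and the fits without each of ESX1 replicates 1 and 3, NC replicates 1, 2 and 3 and WT replicates 2 and 3 (0.0623 to 0.138). CRELD2, at 28.5 ± 2.32, 26.8 ± 3.05 and 23 ± 2.79 CPM, did not pass, except in ESX1 against WT with every library thinned to the smallest total (log2 -0.45, adjusted p = 0.0456).

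The genes of ER-associated degradation, which remove proteins that fail to fold, differed among themselves. HERPUD1, the ER arm gene with the amino acid core in its promoter, was at 28.6 ± 5.25 CPM in WT, 37.4 ± 4.58 in NC and 50.6 ± 6.37 in ESX1, and was higher in ESX1 than in WT (log2 0.82, SE 0.16, adjusted p = 0.00101). Every ESX1 library was above every NC library, but the difference did not pass (log2 0.43, 95% interval 0.10 to 0.76, adjusted p = 0.154). SEL1L, a scaffold of the degradation complex, was at 91.5 ± 9.78, 102 ± 8.83 and 127 ± 28.2 CPM and rose in ESX1 against WT (log2 0.47, adjusted p = 0.0215), a call lost without ESX1 replicate 3 (0.111) or WT replicate 3 (0.0881). EDEM1, which marks glycoproteins for degradation, was at 89 ± 9.21, 82.2 ± 3.74 and 70.5 ± 11 CPM and did not pass, although it was lower in ESX1 than in WT without ESX1 replicate 2 (log2 -0.44, adjusted p = 0.0193).

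**Figure D4:**
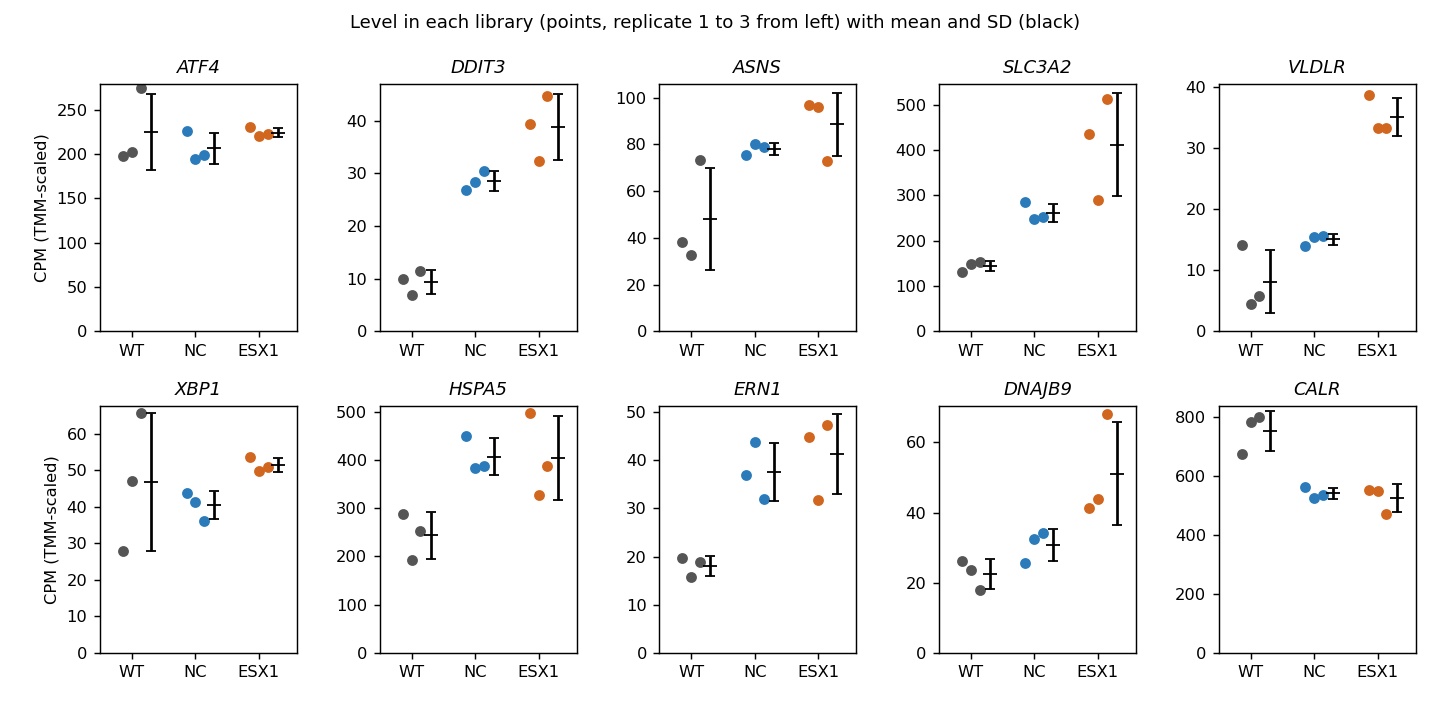
CPM of 10 members in each library (points), with the group mean and SD in black, on axes that start at 0. DDIT3 and SLC3A2 show 3 separate groups, and ATF4 shows overlapping groups. For XBP1 the WT libraries span both other groups, and ESX1 lies above NC. VLDLR is highest in the ESX1 libraries, and CALR is lower in every transfected library than in WT.

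The calls were also counted by matched promoter letters. Of the 7 ATF4 arm genes with the amino acid core, 3 rose in NC and 4 in ESX1 against WT, and of the 16 with a window but without the core, 10 rose in NC and 10 in ESX1. Of the 7 ER arm genes with the ER stress element, 1 rose (HSPA5) and 1 fell (CALR) in NC against WT, and in ESX1 against WT 1 rose and 2 fell (CALR, PDIA6). Of the 10 without the element, 2 rose and 0 fell in NC, and 5 rose and 1 fell in ESX1. Over all tested genes 6.82% were higher and 10.3% lower in NC against WT, and 12.9% and 15.8% in ESX1 against WT. A single gene is a large share of groups this small, and no difference between genes with and without the letters was tested.

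The 2 arms had like median levels in WT, and the most abundant members were ER chaperones. Per kilobase of exon, the WT levels ran from 0.31 CPM per kb (NUPR1) to 95.7 (EPRS) in the ATF4 arm, with a median of 19.3, and from 1.67 (ERN1) to 278 (CALR) in the ER arm, with a median of 18.3. The highest levels in WT belonged to CALR, CANX (240) and HSP90B1 (190), and the order of the first 2 was reversed in NC, with CANX at 243 and CALR at 199, and in ESX1, with CANX at 273 and CALR at 193. SLC3A2 went from 27.9 CPM per kb in WT to 50.5 in NC and 79.6 in ESX1, while HSPA5 went from 62.4 to 104 and 103. Together the 44 members took 0.632 to 0.743% of all counts in WT, 0.827 to 0.859% in NC and 0.818 to 0.876% in ESX1.

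Genes of the same pathways outside the 44 were counted in the same way. In a wider list of 29 amino acid response genes, of which 28 were tested, 9 rose and 1 fell in NC against WT, 9 rose and 3 fell in ESX1 against WT, and 1 rose and 2 fell in ESX1 against NC. The share that rose was 32.1% in both comparisons with WT, against 6.82% of all tested genes in NC and 12.9% in ESX1, and the shares that fell, 3.57% and 10.7%, were below the 10.3% and 15.8% of all genes. In ESX1 against NC 3.57% rose and 7.14% fell, against 1.88% and 2.37% of all genes, which rests on 3 genes. GDF15, a secreted stress cytokine, was at 1.53, 0.729 and 1.15 CPM in WT, 7.36, 6.65 and 5.19 in NC and 17.1, 7.34 and 11.1 in ESX1, and was higher in NC than in WT (log2 2.45, SE 0.377, adjusted p = 3.37e-04). The amino acid carriers SLC7A11 (log2 0.99, adjusted p = 1.02e-04) and SLC1A4 (log2 1.18, adjusted p = 4.84e-04) rose there too. SLC38A2, the glutamine carrier SNAT2, was at 99.8, 130 and 184 CPM in WT, 148, 171 and 165 in NC and 279, 331 and 312 in ESX1. It rose in ESX1 against NC (log2 0.93, SE 0.165, edgeR adjusted p = 0.00292), also in each of the 9 fits that left out a library. WT replicate 3 lay above every NC library. NC against WT did not pass (log2 0.22, edgeR adjusted p = 0.38), except in 1 of those 9 fits. WARS and VARS, synthetases for tryptophan and valine, were lower in ESX1 than in NC (log2 -0.56, adjusted p = 0.0204, and log2 -0.63, adjusted p = 0.0402). Those 2 calls held in 5 and 3 of the 9 fits, with adjusted p up to 0.123 for WARS and 0.194 for VARS. WARS had means of 357 CPM in WT, 470 in NC and 318 in ESX1. It was higher in NC than in WT (log2 0.40, edgeR adjusted p = 0.0468) and did not pass in ESX1 against WT (log2 -0.16, edgeR adjusted p = 0.384). VARS had means of 108, 116 and 74.9 CPM and was lower in ESX1 than in WT too (log2 -0.53, edgeR adjusted p = 0.0255).

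In a wider list of 31 genes of ER folding, transport and degradation, 4 rose and 2 fell in NC against WT, 7 rose and 1 fell in ESX1 against WT, and 1 rose in ESX1 against NC. The shares that rose were 12.9%, 22.6% and 3.23%, against 6.82%, 12.9% and 1.88% of all tested genes, and those that fell against WT, 6.45% in NC and 3.23% in ESX1, were below the 10.3% and 15.8% of all genes. The gene that rose in ESX1 against NC was SEC24D, a coat protein of vesicles that leave the ER (log2 0.64, adjusted p = 0.0355), and its call held in 4 of the 9 fits that left out a library. SERP1 and HSPA13 were next in order of adjusted p in ESX1 against NC and did not pass (log2 0.39, adjusted p = 0.0973, and log2 0.35, adjusted p = 0.152). PDIA5 (log2 0.80, adjusted p = 0.00967) and P4HB (log2 0.38, adjusted p = 0.0312) rose and SEC61B fell by 0.49 on the log2 scale (adjusted p = 0.0208) in NC against WT, in 8, 5 and 5 of those fits.

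Among 18 genes of the upstream sensors and of eIF2, the kinases GCN2 and PERK were higher in ESX1 than in NC, 11.1% of the list against 1.88% of all tested genes. Against WT 1 rose and 1 fell in NC, and 2 rose and 2 fell in ESX1 (5.56% and 11.1% each way), below the shares of all genes. EIF2AK4 (GCN2) was at 33, 34.8 and 32.9 CPM in NC and 53.5, 46.2 and 46.4 in ESX1 (log2 0.54, SE 0.127, adjusted p = 0.0203). EIF2AK3 (PERK) was at 45.1, 50.9 and 48.2 CPM in NC and 61, 62.2 and 71.3 in ESX1 (log2 0.43, SE 0.117, adjusted p = 0.046). Neither pair of groups overlapped, and the calls held in 5 and 1 of the 9 fits that left out a library, with adjusted p up to 0.109 and 0.192. The EIF2AK3 call passed under 8 of 19 other settings. In ESX1 against WT, the log2 fold change over those 9 fits was 0.34 to 0.48 for EIF2AK4 (6 passed) and 0.26 to 0.34 for EIF2AK3 (0 passed). In NC against WT it was -0.15 to -0.08 and -0.15 to -0.06, and 0 passed for either gene. ATF6, the sensor of the ER arm, was at 15.4, 15.9 and 20.9 CPM in WT, 27.7, 32.5 and 29.6 in NC and 39.9, 47.5 and 42.5 in ESX1. It was higher in NC than in WT (log2 0.78, SE 0.158, adjusted p = 0.00282) and missed the threshold in ESX1 against NC (log2 0.53, adjusted p = 0.0576). There it passed under 10 of 19 other settings, among them DESeq2, limma and 2 of the 9 fits that left out a library, and its adjusted p reached 0.219 without NC replicate 1. EIF2S3, a subunit of eIF2, fell in NC against WT (log2 -0.34, adjusted p = 0.0469, held in 3 of 9), and EIF2AK2 and EIF2S2 did not pass there (log2 0.53, adjusted p = 0.0782, and log2 -0.33, adjusted p = 0.117).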

How the data were processed

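Count tables were deposited by the authors: paired reads aligned with HISAT2 (2.0.5, per the labels) to GRCh38 and counted per gene with featureCounts, with no strand option in the file header. The labels and the header differ in the featureCounts and GENCODE versions. The authors also deposited log2 values normalized with DESeq2, whose transformation is not given in the sources used here. The 2 tables were joined row by row, and in each of the 9 libraries the deposited value rose with the count. Rows on patches and alternative scaffolds (5637, with 0 counts) were left out, and each member has 1 primary row (HYOU1 and CANX also have an empty scaffold row).

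Counts were fitted over all 9 libraries in 3 groups with edgeR 4.0.16 (R 4.3.3), filterByExpr, TMM factors and the quasi-likelihood test, with Benjamini-Hochberg adjustment over the 18452 genes kept. Totals ran from 5212804 to 10644408 counts and members from 7 to 16246 counts per library, and counting error is largest in ESX1 replicate 3. Standard errors are the log2 fold change divided by the square root of F, and 95% intervals use the fit's degrees of freedom. Replicate log2 CPM correlated at 0.967 to 0.98. The members and lists were chosen with earlier results of these data known, so no test over a list was made. All 44 members are named; values in every library are given where ESX1 against NC passed or another comparison passed with a 2-fold change, and for ATF4, DDIT3, ASNS, HSPA5 and XBP1, with CALR added after its values were seen. At most 6 genes were named of each wider list, by adjusted p. Alternatives were other scalings and filters, DESeq2 1.42.0, limma 3.58.1 on the deposited log2 values, a replicate block, leaving out each library and thinning. The fit was also run on simulated counts in which known fold changes were placed in ESX1 alone. NC and WT did not differ there, so the recovery of changes between them was not examined.

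Counting without strand can assign reads of a gene to an opposite-strand neighbour or drop them: at least 10% of the exon bases of 6 members lie in another gene, and 26 members have no such overlap. The annotation names 25 pseudogene copies of 9 members. The sequences are RefSeq promoter windows.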

Additional observations from a re-analysis of the deposited data

How the results depend on the processing

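Of 132 member results (44 genes in 3 comparisons), the call was unchanged in all 19 alternatives for 101, and 31 changed in at least 1; 0 reversed. Upper-quartile scaling moved the median of all genes to 0.11 (ESX1 against WT) and 0.10 (NC against WT), and with it TRIB3, CANX, SDF2L1 and HERPUD1 passed upward and MANF no longer passed. limma on the deposited log2 values and removal of mitochondrial genes changed no member's call.

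With a 2-fold change demanded as well, the ATF4 arm counts were 1, 11 and 4 and the ER arm counts 0, 2 and 1 in ESX1 against NC, ESX1 against WT and NC against WT. At an adjusted p below 0.01 they were 0 (ATF4 arm) and 0 (ER arm) in ESX1 against NC, and 9 for the ATF4 arm in NC against WT. With every library thinned to the smallest total, a setting chosen after seeing the data, the ER arm count in ESX1 against NC was 0; the construction leaves fewer counts in 8 libraries.

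Leaving out each library in turn gave ATF4 arm counts of 0 to 3 in ESX1 against NC, 13 to 18 in ESX1 against WT and 9 to 15 in NC against WT, and ER arm counts of 0 to 1, 6 to 10 and 4 to 7. The ATF4 arm medians ran from 0.03 to 0.20, 0.53 to 0.79 and 0.42 to 0.77, and the ER arm medians from -0.04 to 0.03, -0.15 to 0.15 and -0.03 to 0.09. Counts left the 1.5-fold range of the main value without ESX1 replicates 1 or 3 or any NC library in ESX1 against NC (0 or 1 for the ATF4 arm), without ESX1 replicate 3, any NC library or WT replicate 2 in the same comparison (0 for the ER arm), without NC replicates 2 or 3 or WT replicate 2 (9) in NC against WT, for the ATF4 arm, and for the ER arm without WT replicate 1 (7 in NC against WT). Among genes outside the 44, EIF2AK2 in ESX1 against WT was at log2 -0.41 without ESX1 replicate 2 and 0.22 without ESX1 replicate 1, the lowest and highest of these fits, and at 0.02 with all libraries. The cause was not tested.

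The main fit used no pairing by replicate number, since the study names none. Same-numbered libraries' deviations from their group means correlated at -0.0296 to 0.193, not all above 0.1. The numbers are those of the sample titles, and the submitters' own library names number the ESX1 libraries otherwise. Whether the numbers pair the samples was not tested. A block for the replicate number gave ATF4 arm counts of 3, 17 and 14 and ER arm counts of 1, 10 and 4, in the same order, since SLC7A5 (ESX1 against NC, adjusted p = 0.0153) and EDEM1 (ESX1 against WT, 0.0453) passed as well.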
